A study of Mus musculus with 7 samples.

Results

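The sodium, calcium and HCN channel genes are the genes of the voltage-gated channels that carry inward current in neurons, with their auxiliary subunits. They were found by symbol in a table of 56941 rows from cerebral cortex of mice at postnatal day 7. The rule took the sodium channel α genes (Scn1a and its relatives) and β genes, the calcium channel α1 and α2δ genes (all symbols that begin with Cacna1 or Cacna2), Cacnb1 to Cacnb4, the Cacng genes numbered 1 to 8 with 1 of them not analysed here, and the HCN genes. It gave 43 genes, of which 36 had a mean of at least 1 transcript per 1000000 (TPM) over the samples and were tested. The rule used no measured value.

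RNA sequencing compared 3 cortex samples of P213L mice with 4 of wild-type (WT) mice. P213L is a protein variant of Hnrnph2, an X-linked gene for a nuclear RNA-binding protein that acts in splicing. The labels give genotype, tissue and age for each sample, while strain, sex and the way the variant was introduced are not in the sources used here. Whether each sample is a different mouse is not stated there either, and p-values speak only of the spread among these 7, which may be technical. Cortex is a mixture of cells, and fewer cells of a type cannot be told apart from less RNA per cell. Hnrnph2 stood at 82.0 ± 5.39 TPM in P213L and 87.0 ± 5.66 TPM in WT (SD, n = 3 and 4), a level that does not check the genotype, since the variant alters the protein.

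Voltage-gated sodium channels open on depolarization and drive the action potential. Each is 1 large α protein with β proteins that tune its gating and hold it to the cell surface. Calcium channels are built on an α1 pore. The α2δ and β subunits bring that pore to the membrane. Most of the γ family members of brain act instead on AMPA-type glutamate receptors, as transmembrane AMPA receptor regulatory proteins (TARPs). HCN channels open on hyperpolarization and carry the current that paces rhythmic firing. In the young rodent cortex these families are still changing their makeup, with Scn2a and Scn3a prominent early and Scn1a and Scn8a gaining with age.

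WT replicate 3 stood apart, and values are therefore given with and without it. Across tested rows its correlation with the other 6 libraries was 0.943 to 0.949, against 0.981 to 0.992 among those 6, and 28367 rows were above 0 there, against 31387 to 32526. The 43 genes summed to 1544 TPM in it, and to 2543 to 2696 TPM in P213L and 2547 to 2737 TPM in the other 3 WT libraries. The summed level of 10 pan-neuronal markers was 7244 to 7520 TPM in P213L and 6940 to 7599 TPM in WT, with 7024 TPM in WT replicate 3. In that library Tubb3 (4074 TPM) and Stmn2 (1341 TPM) made up most of this sum, and 6 of the 10 genes were below every other WT library, among them Rbfox3 at 100.3 TPM. That of 8 markers of cortical excitatory neurons was 1273 to 1396 TPM in P213L and 1349 to 1452 TPM in WT replicates 1, 2 and 4, but 872.5 TPM in WT replicate 3. For 6 markers of inhibitory neurons it was 1219 to 1326 TPM in P213L, 1193 to 1329 TPM in those WT libraries and 1786 TPM in WT replicate 3. The high sum there was that of Sst alone (1516 TPM), and the other 5 genes, Gad1 and Gad2 included, were below every other WT library. In the excitatory list, Slc17a7 stood at 543.4 to 631.5 TPM in P213L and 247.8 to 707.4 TPM in WT. Neurod6 stood at 183.1 to 227.7 TPM in P213L and 167.7 to 219.5 TPM in WT, as fits the cortex label. Of 5 cerebellar markers Pcp2 and Gabra6 were under 0.5 TPM in every library, while Car8, Calb1 and Zic1 were detected in all, and the 5 summed to 87.5 to 103.6 TPM in P213L and 93.6 to 118.8 TPM in WT. In WT replicate 2 the summed choroid plexus markers reached 1244 TPM, against at most 9.54 TPM elsewhere.

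**Figure D1:**
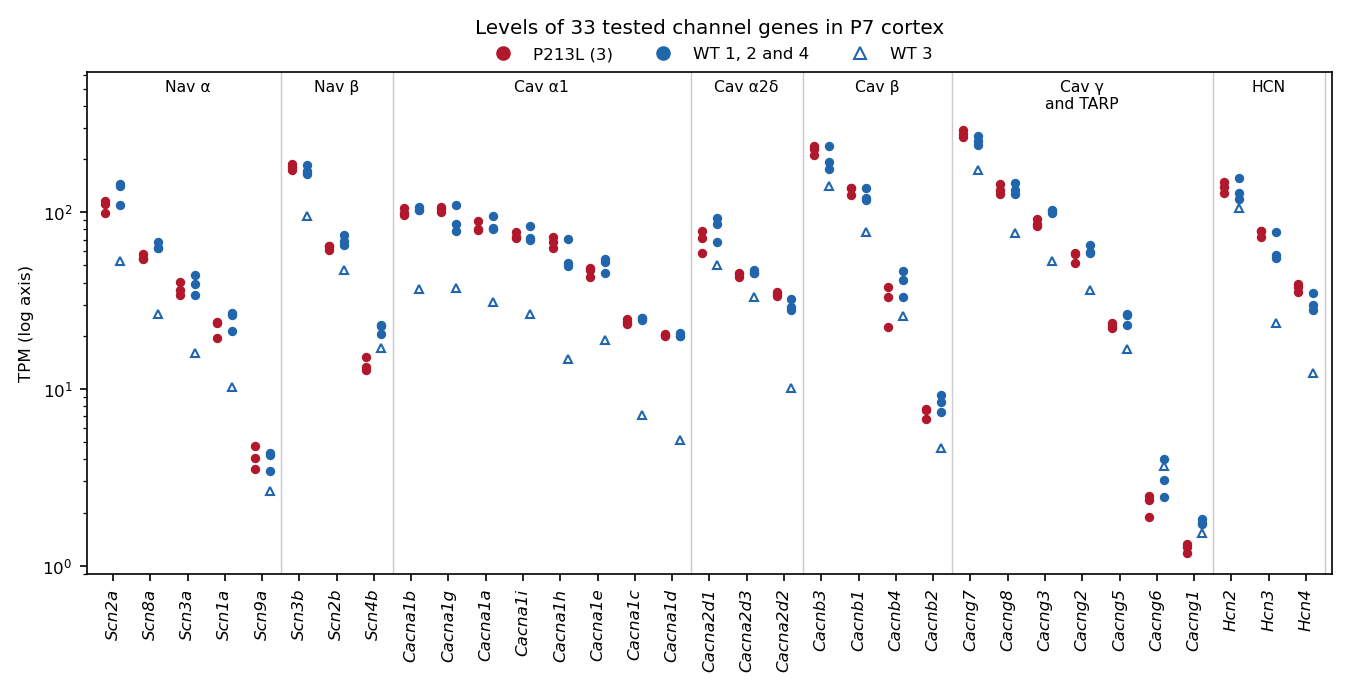
TPM (log axis) of 33 of the tested channel genes, grouped by family, with 1 point per sample. P213L samples are red, WT replicates 1, 2 and 4 are filled blue and WT replicate 3 is an open triangle, which lies below the other WT samples for every gene drawn except Cacng6.

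No channel gene passed the test across the table. In limma (two-sided, Benjamini-Hochberg adjustment), 0 of the 36 genes had an adjusted p under 0.05, as did 0% of the 17582 rows tested, and the same held without WT replicate 3 (0% of rows). The smallest adjusted p among the 36 was 0.827 with all samples and 0.305 without that library. At an unadjusted p under 0.05, 2 genes were lower in P213L, Scn4b and Cacng6, which is 5.56% against 1.38% of all rows, and 0 were higher, against 2.36% of all rows. Leaving out WT replicate 3, 5 genes were lower (Scn4b, Scn8a, Scn2a, Cacng3 and Cacng1), 13.9% against 3.99% of all rows, and 2 were higher (Hcn4 and Cacna2d2), 5.56% against 4.7%.

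The direction of the group as a whole turned with that library. With all samples 29 of the 36 log2 fold changes were above 0, with a median of 0.17 against 0.07 over all rows. Median-of-ratios scaling or quantile normalization left 22 of 36 above 0 and 14 below. With WT replicate 3 left out 24 of 36 were below 0, with a median of -0.05 against -0.002 over all rows. With all samples the P213L and WT values did not overlap for 2 higher genes (5.56%, against 5.94% of all rows) and 2 lower genes (5.56%, against 2.75%). Once that library was left out they did not overlap for 2 higher genes (5.56%, against 7.33%) and 6 lower genes (16.7%, against 6.89%). Leaving out WT replicate 1 instead gave 0 genes past adjustment (0% of rows). At an unadjusted p under 0.05 it gave 2 higher genes (5.56%, against 6.69% of rows) and 1 lower gene (2.78%, against 2.26%). There 10 higher genes (27.8%, against 18.5% of rows) and 2 lower genes (5.56%, against 6.47%) did not overlap. Leaving out any 1 P213L library or WT replicate 4 gave 1 lower gene (2.78%, against 0.609 to 1.16% of rows).

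**Figure D2:**
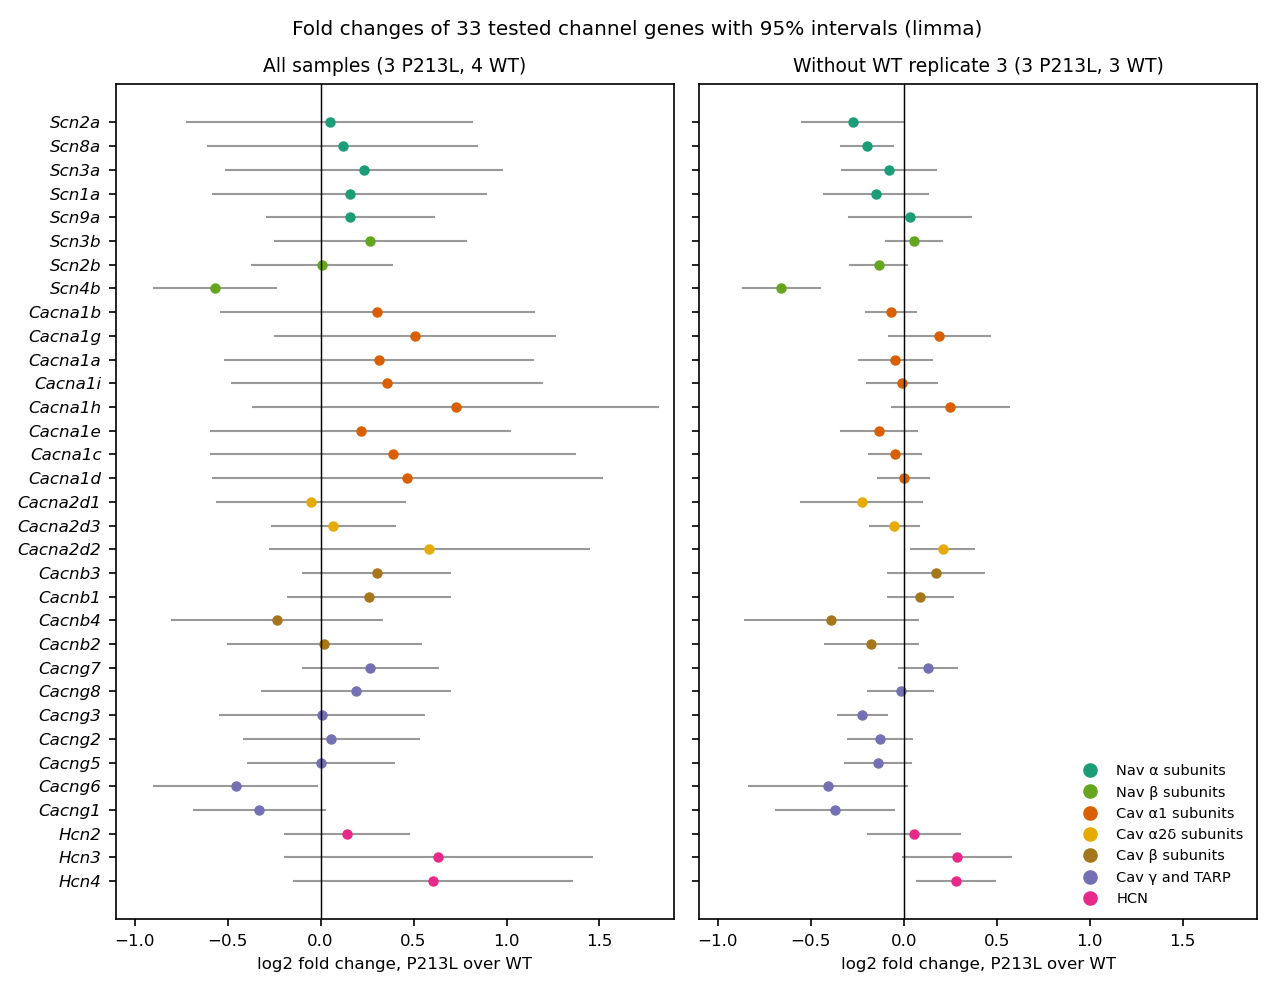
Log2 fold changes of P213L over WT on the log2(TPM + 0.5) scale with 95% intervals from limma, for 33 of the tested genes, 1 row per gene and colours by family. With all samples on the left, most points lie right of 0 with wide intervals, and without WT replicate 3 on the right, 21 of 33 lie left of 0 with narrower intervals.

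Of the 10 sodium channel α genes, 6 were tested. The order of levels was Scn2a, Scn8a, Scn3a, Scn1a and Scn9a in every library. Scn2a, the main channel of the young axon initial segment, had 98.6, 115.3 and 110.7 TPM in P213L, against 109.7, 144.2, 53.2 and 141.3 TPM in WT replicates 1 to 4. The P213L values lay inside the WT range, and below WT replicates 2 and 4. The log2 fold change was 0.05 ± 0.33 with all samples and -0.27 ± 0.12 without WT replicate 3 (SE; limma adjusted p = 0.965 and 0.566). Scn8a, which takes over at mature initial segments and nodes of Ranvier, had 54.5, 55.3 and 58.3 TPM in P213L, against 62.4, 67.5, 26.5 and 62.9 TPM in WT. All P213L values lay below WT replicates 1, 2 and 4 and above WT replicate 3. For Scn8a the log2 fold change was 0.12 ± 0.31 with all samples and -0.20 ± 0.06 without that library (SE; limma adjusted p = 0.906 and 0.507).

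Shares of the family overlapped between the groups for its other main members, but not for Scn3a. Scn2a made up 45.6 to 46.9% of the summed α TPM in P213L and 46.2 to 50.2% in WT. Scn8a made up 22.5 to 25.2% in P213L and 22.4 to 26.3% in WT, and Scn1a, the channel of fast-spiking interneurons, 8.98 to 9.84% in P213L and 8.95 to 9.55% in WT. The early gene Scn3a overlapped in level, at 33.9 to 40.3 TPM in P213L and 16.1 to 43.9 TPM in WT. Its log2 fold change was 0.23 with all samples and -0.08 without WT replicate 3. The share of Scn3a was 15.2 to 16.4% in P213L and 14.0 to 15.0% in WT, with all P213L shares above all WT shares, WT replicate 3 included. The ratio of Scn2a to Scn3a was 2.86 to 3.04 in P213L and 3.24 to 3.58 in WT, again without overlap. The groups overlapped for the ratio of Scn8a to Scn3a, at 1.37 to 1.61 in P213L and 1.54 to 1.84 in WT. They also overlapped for that of Scn1a to Scn3a, at 0.572 to 0.646 in P213L and 0.5996 to 0.681 in WT. These shares and ratios do not depend on a factor common to the family, and no test was made on them. Scn1a, Scn2a, Scn3a and Scn9a are close paralogs that lie near each other on chromosome 2. Whether a read shared by several of them was dropped or counted is not given in the sources used here, which makes their split uncertain.

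The other α genes were low. Scn9a, best known from pain-sensing neurons, stood at 3.52 to 4.76 TPM in P213L and 2.66 to 4.34 TPM in WT. Scn4a of skeletal muscle, Scn7a, and Scn10a and Scn11a of sensory neurons had at most 0.32 TPM in P213L, except Scn11a, and at most 0.315 TPM in WT, again except Scn11a. Scn11a had 0.353 to 0.433 TPM in P213L and 0.408 to 0.636 TPM in WT. These 4 genes were not tested.

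Among the β genes, Scn4b had the smallest p of all 36 genes. It encodes the β4 subunit, which can block the open pore and so support resurgent current, and is abundant in striatal and cerebellar Purkinje neurons. Scn4b had 12.8, 13.4 and 15.2 TPM in P213L, against 22.8, 20.4, 17.0 and 22.9 TPM in WT. Every P213L sample was below every WT sample, WT replicate 3 included. Its log2 fold change was -0.57 ± 0.14 with all samples (SE; limma p = 0.00393, adjusted p = 0.827; exact permutation p = 0.0571, where 0.0286 is the smallest possible). It was -0.66 ± 0.09 without WT replicate 3 (SE; limma p = 1.13e-04, adjusted p = 0.305; exact permutation p = 0.1, the smallest that 3 against 3 allows). Over the alternatives tried, the fold change ran from -0.71 to -0.52 and the limma adjusted p from 0.00475, with sample weights, to 0.976, without P213L replicate 3.

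Since Scn4b is abundant in striatal neurons, markers of these cells are given beside it. The summed level of the 6 striatal markers was 521.3 to 559.1 TPM in P213L and 509.8 to 665.7 TPM in WT, highest in WT replicate 1. Their part in the Scn4b values was not tested.

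The gene next to it did not share this pattern to the same extent. Scn2b, whose β2 subunit is disulfide-linked to the α protein, starts 20613 bases before Scn4b on the same strand of chromosome 9 in GENCODE vM21. Scn2b had 61.4, 64.1 and 64.7 TPM in P213L, against 74.7, 69.0, 47.0 and 65.6 TPM in WT. The P213L values lay below WT replicates 1, 2 and 4 by a small margin and above WT replicate 3. The ratio of Scn4b to Scn2b was 0.208 to 0.235 in P213L and 0.295 to 0.361 in WT, without overlap.

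The 250 bases before the RefSeq starts of Scn4b and Scn2b (GRCm38.p6, plus strand) were read as a description. The part of these stretches in the level of either gene was not tested. RefSeq promoters were matched for 32 of the 43 genes. The Scn4b stretch lies at chr9:45138374-45138623 and the Scn2b stretch at chr9:45117626-45117875. The vM21 starts lie upstream of the RefSeq starts, so that 229 bases of the Scn4b stretch and 94 of the Scn2b stretch fall within the vM21 genes, and they are described here by their composition. Neither stretch holds a GC box (GGGCGG on either strand).

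The Scn4b stretch held 23 CpG dinucleotides and 66% G and C, and the Scn2b stretch 1 CpG and 38.4%, where the median over 32536 promoters was 6 CpG. A CCAAT motif was found once in the Scn4b stretch and not in that of Scn2b, and 33.8% of all promoters hold it on 1 strand or the other. No TATAAA was found in either (12.3% of all promoters). The left and right parts of the RE1 element of the repressor REST (CAGCACC and GGACAG) were also not in these windows, and 5.74 and 18.8% of all promoters hold them. Each motif was searched on both strands, and none holds another within it.

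Scn3b, the β3 subunit prominent in immature neurons, had 187.2, 179.0 and 172.8 TPM in P213L, against 163.8, 171.3, 95.5 and 184.3 TPM in WT. The groups overlapped, with WT replicates 1, 2 and 3 below every P213L sample and WT replicate 4 among them.

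**Figure D3:**
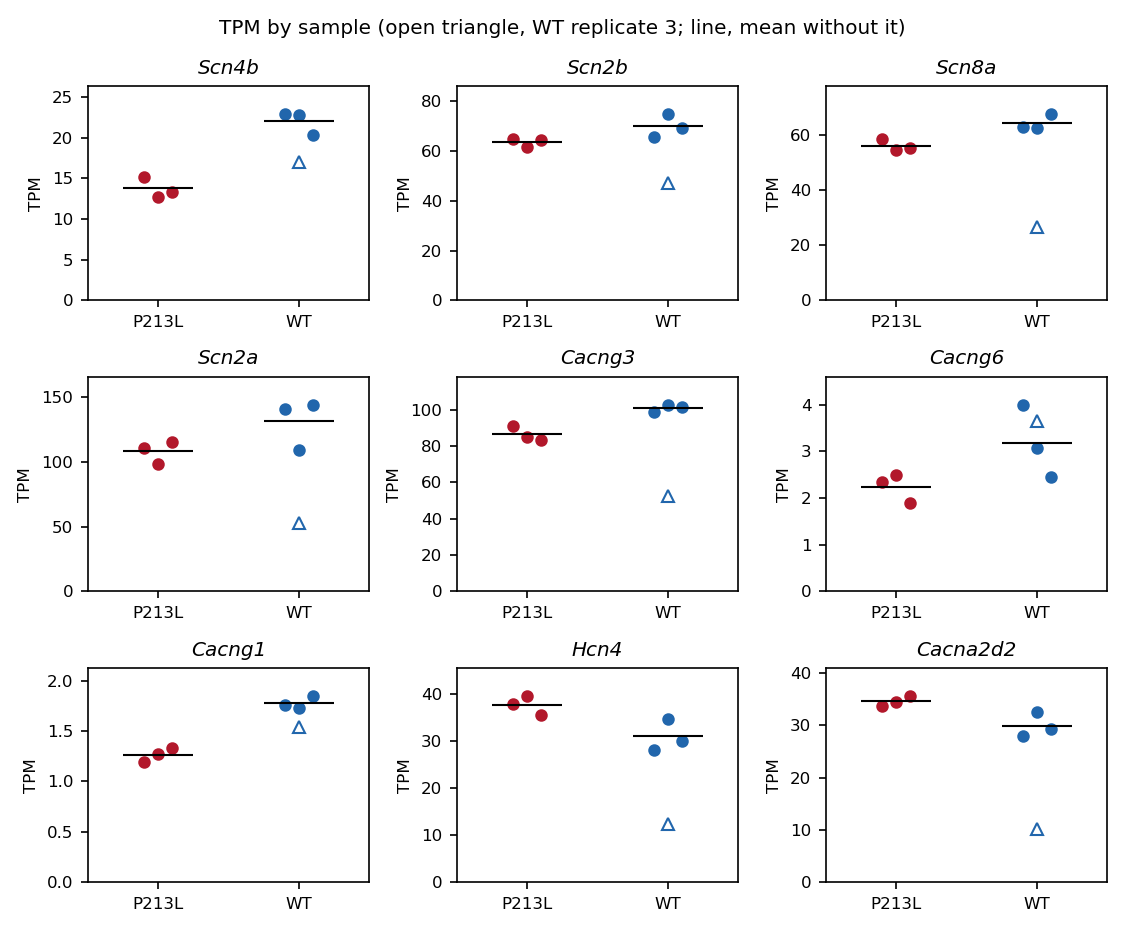
TPM by sample for 9 channel genes, P213L on the left of each panel and WT on the right, on linear axes that start at 0. Open triangles are WT replicate 3 and lines are means without it. The groups do not overlap for Scn4b, Cacng1, Hcn4 and Cacna2d2 with all samples.

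All 8 tested calcium channel α1 genes had log2 fold changes above 0 with all samples (0.22 to 0.73) and 5 of 8 below 0 without WT replicate 3 (-0.13 to 0.25). None passed in limma, and 0 of 8 had an unadjusted p under 0.05 in either fit. Cacna1b, the N-type channel of presynaptic terminals, had 98.4, 96.0 and 105.0 TPM in P213L, against 107.5, 103.1, 36.9 and 102.9 TPM in WT. Outside WT replicate 3 the groups still overlapped, with 105.0 TPM as the highest P213L value and 102.9 TPM as the lowest WT value. Cacna1g, a T-type channel that opens near rest and supports burst firing, had 103.8, 99.8 and 106.9 TPM in P213L, against 109.3, 78.6, 37.3 and 86.2 TPM in WT. WT replicate 1 was above every P213L sample and WT replicates 2 and 4 below.

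By mean TPM the remaining α1 genes came in the same order in P213L and in WT replicates 1, 2 and 4. Cacna1a, the P/Q-type channel that drives transmitter release, stood at 79.3 to 89.6 TPM in P213L and 31.1 to 94.6 TPM in WT. The T-type genes Cacna1i and Cacna1h stood at 71.9 to 77.4 and 62.8 to 72.0 TPM in P213L, and at 26.7 to 83.0 and 14.8 to 70.4 TPM in WT. Cacna1e, the R-type channel, stood at 42.8 to 48.2 TPM in P213L and 18.9 to 54.3 TPM in WT. The L-type genes of brain had narrow ranges outside WT replicate 3. Cacna1c stood at 23.4 to 24.98 TPM in P213L and 24.5 to 25.3 TPM in WT replicates 1, 2 and 4, with 7.10 TPM in WT replicate 3. Cacna1d stood at 19.8 to 20.4 TPM in P213L and 19.9 to 20.6 TPM in those 3 libraries, with 5.15 TPM in WT replicate 3. The 95% interval of the Cacna1d log2 fold change without WT replicate 3 was -0.14 to 0.14, and that of Cacna1c -0.18 to 0.09.

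Cacna1s of skeletal muscle and Cacna1f of the retina were not tested, at 0.289 to 0.553 TPM in P213L and 0.103 to 0.598 TPM in WT for the pair. The retinal markers Nrl and Pde6b were under 0.5 TPM in every library.

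Of the 4 α2δ genes, 3 were tested. Cacna2d1, the target of gabapentin, had 59.1, 78.4 and 71.9 TPM in P213L, against 68.1, 92.1, 50.1 and 85.2 TPM in WT. Cacna2d3 had 44.7, 42.8 and 45.5 TPM in P213L, against 47.3, 45.1, 33.0 and 45.3 TPM in WT. The groups overlapped for both. Cacna2d2, whose loss causes the ducky mouse with epilepsy and ataxia, had 34.4, 35.6 and 33.6 TPM in P213L, against 32.5, 29.2, 10.2 and 27.9 TPM in WT. Every P213L sample was above every WT sample, with WT replicate 1 nearest. The Cacna2d2 log2 fold change was 0.59 ± 0.37 with all samples and 0.21 ± 0.07 without WT replicate 3 (SE; limma adjusted p = 0.827 and 0.531). Cacna2d2 made up 22.2 to 24.8% of the summed α2δ TPM in P213L and 10.8 to 21.8% in WT, without overlap. Shares of the own family also did not overlap for Scn3a, Hcn3 and Hcn4 (higher in P213L). The same held for Scn4b, Cacna1i, Cacng1, Cacng6 and Hcn2 (lower in P213L). No such share over all rows was computed to set beside these. Cacna2d4, a retinal form, was not tested, at 0.546 to 0.680 TPM in P213L and 0.504 to 0.727 TPM in WT.

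All 4 calcium channel β genes were tested, and the groups overlapped for each. Cacnb3 had 237.0, 211.0 and 228.4 TPM in P213L, against 236.6, 176.1, 139.9 and 190.9 TPM in WT. Cacnb1 had 136.6, 125.3 and 136.2 TPM in P213L, against 136.5, 117.5, 77.6 and 120.5 TPM in WT. In both, WT replicate 1 stood with the P213L samples. Cacnb4, whose loss causes the lethargic mouse with seizures, stood at 22.5 to 37.7 TPM in P213L and 25.9 to 46.4 TPM in WT, with the lowest P213L value below every WT value. Cacnb2 stood at 6.73 to 7.69 TPM in P213L and 4.64 to 9.28 TPM in WT.

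The γ family had the highest summed level of the 7 families in every library but WT replicate 3, at 559.8 to 596.6 TPM in P213L and 361.1 to 606.2 TPM in WT. Cacng7, a TARP, had 291.2, 265.7 and 276.7 TPM in P213L, against 270.1, 239.7, 173.7 and 251.5 TPM in WT. Cacng8, a TARP prominent in the hippocampus and cortex, had 132.6, 126.2 and 143.8 TPM in P213L, against 146.0, 127.3, 76.4 and 134.1 TPM in WT. The groups overlapped for both, as they did with all samples for Cacng2 (51.6 to 58.9 TPM in P213L, 36.3 to 65.3 TPM in WT) and Cacng5 (22.2 to 23.6 TPM in P213L, 16.8 to 26.5 TPM in WT). Cacng2 encodes stargazin, the TARP missing in the stargazer mouse with absence seizures. With WT replicate 3 left out, the Cacng2 values of P213L lay just below those of WT.

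Cacng3, a TARP of cortical neurons, had 85.2, 83.1 and 91.1 TPM in P213L, against 102.5, 101.3, 52.7 and 98.9 TPM in WT. As for Scn8a, the P213L samples sat between WT replicate 3 and the other WT samples. The Cacng3 log2 fold change was 0.01 ± 0.24 with all samples and -0.22 ± 0.06 without that library (SE; limma adjusted p = 0.991 and 0.491). Median-of-ratios scaling turned the value with all samples to -0.074.

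Cacng1, the γ subunit of the skeletal muscle calcium channel, was near the limit of the filter, at 1.27, 1.33 and 1.19 TPM in P213L, against 1.73, 1.85, 1.54 and 1.75 TPM in WT. The groups did not overlap. Its log2 fold change was -0.33 ± 0.15 with all samples (SE; limma adjusted p = 0.827; exact permutation p = 0.0286, the smallest possible) and -0.37 ± 0.14 without WT replicate 3 (limma adjusted p = 0.537). Cacng6, its closest relative, had 2.49, 1.89 and 2.35 TPM in P213L, against 3.07, 2.46, 3.66 and 3.996 TPM in WT. Only the highest P213L and the lowest WT value crossed. The Cacng6 log2 fold change was -0.46 ± 0.19 with all samples and -0.41 ± 0.18 without WT replicate 3 (SE; limma adjusted p = 0.827 and 0.580). The summed level of 7 skeletal muscle markers was 24.4 to 28.0 TPM in P213L and 25.8 to 39.6 TPM in WT, highest in WT replicate 3 and at most 27.2 TPM in the other WT libraries. Acta1 alone stood at 31.8 TPM in WT replicate 3, against 18.1 to 19.1 TPM in the other WT libraries. Mylpf stood at 0.677 to 1.49 TPM in P213L and 1.36 to 2.39 TPM in WT, and Myh3 at 3.64 to 4.55 and 4.41 to 4.67 TPM. Myh8 stood at 0.737 to 0.921 TPM in P213L and 0.621 to 0.888 TPM in WT, and Tnnt3 at 0.439 to 0.892 and 0.546 to 0.746 TPM. Myod1 and Ckm were under 0.5 TPM in every library. The part of the muscle markers in the Cacng1 and Cacng6 values was not tested.

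Hcn2, an HCN channel abundant in the brain, had 139.5, 128.0 and 148.4 TPM in P213L, against 155.2, 127.5, 105.1 and 119.1 TPM in WT. Hcn3 had 78.5, 72.1 and 78.5 TPM in P213L, against 77.0, 55.2, 23.5 and 57.5 TPM in WT. The groups overlapped for both. Hcn4, the pacemaker channel of the heart and of thalamic neurons, had 39.5, 35.5 and 37.8 TPM in P213L, against 34.7, 29.9, 12.4 and 28.1 TPM in WT. Here too the P213L samples were all above the WT samples, WT replicate 1 being nearest. The Hcn4 log2 fold change was 0.60 ± 0.32 with all samples and 0.28 ± 0.09 without WT replicate 3 (SE; limma adjusted p = 0.827 and 0.516). The ratio of Hcn4 to Hcn2 was 0.255 to 0.283 in P213L and 0.118 to 0.236 in WT, without overlap, and no test was made on it. The summed level of 5 thalamic markers was 29.2 to 30.3 TPM in P213L and 20.6 to 31.8 TPM in WT, and its part in the Hcn4 values was not tested.

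Of the 36 genes tested, Hcn4 and Cacna2d2 had every P213L sample above every WT sample (5.56%, against 5.94% of all rows). The 250 bases before their RefSeq starts lie at chr9:58822699-58822948 and chr9:107399630-107399879 (GRCm38.p6, plus strand). The first vM21 start of Hcn4 lies 464 bases past the end of its stretch, which is shown with GC boxes in capitals. All 250 bases of the Cacna2d2 stretch fall within the vM21 gene, and only its composition is given.

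Hcn4: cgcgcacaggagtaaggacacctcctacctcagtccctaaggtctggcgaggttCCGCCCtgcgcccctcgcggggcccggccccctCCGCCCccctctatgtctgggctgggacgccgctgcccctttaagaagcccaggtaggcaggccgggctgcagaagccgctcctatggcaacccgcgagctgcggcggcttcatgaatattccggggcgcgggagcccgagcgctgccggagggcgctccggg

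The Hcn4 stretch held 2 GC boxes and 25 CpG dinucleotides, and that of Cacna2d2 1 GC box and 34 CpG dinucleotides. GC boxes were present in 33.0% of all promoters and in 17 of 43 promoters of the channel genes (39.5%), some genes having more than 1.

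The level in WT replicate 3 went with the length of the transcript. Lengths are exon unions in GENCODE vM21 (the mm10 build), which ran from 1249 to 25228 bases over the 36 genes. The 16 channel genes over 9000 bases had a median log2 difference of -1.28 between WT replicate 3 and the mean of the other WT libraries, against -0.80 for all 1865 tested rows of that length. For the 6 channel genes of up to 3000 bases it was -0.35, against 0.05 for all 6384 rows. Cacna1h held 25.8% of its mean TPM in the other WT libraries and Cacna1d 25.6%, while Cacng6 held 115.1%. Over the 36 genes Spearman's correlation of this difference with length was -0.57 and with GC content 0.05. These values describe 1 library, and the genes share its RNA and its scaling.

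**Figure D4:**
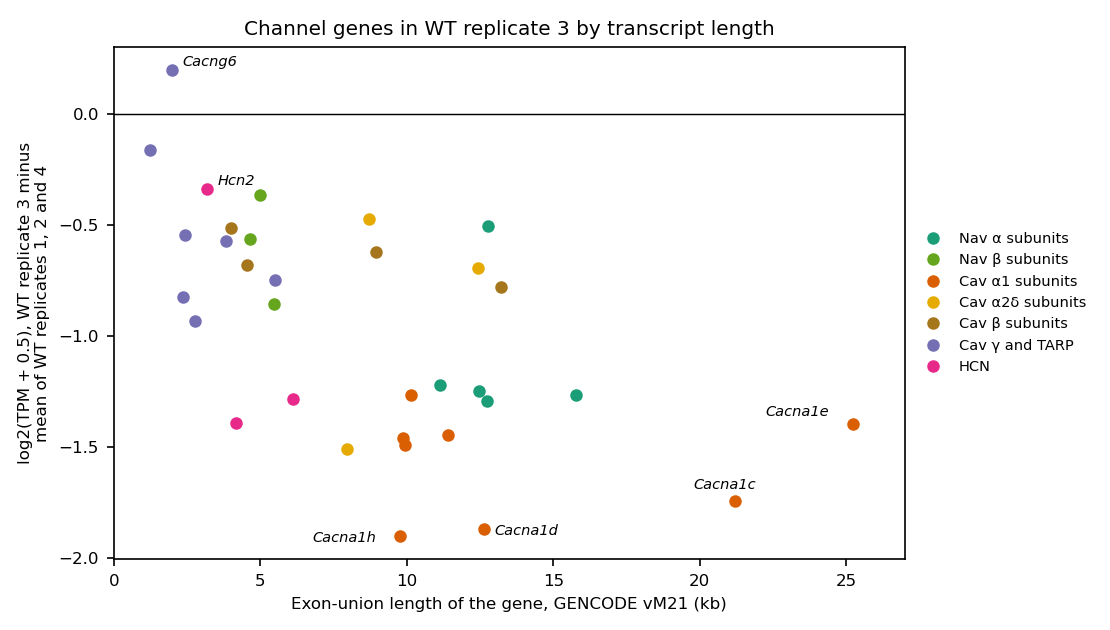
Log2 difference of TPM + 0.5 between WT replicate 3 and the mean of WT replicates 1, 2 and 4, against exon-union length in kb, for 33 of the tested channel genes coloured by family. Cacng6, a short gene, lies above 0 and the α1 genes Cacna1h, Cacna1d and Cacna1c lie lowest.

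Among the other 6 libraries the channel genes spread with GC content instead, on both sides of the genotype. GC content is that of the longest coding transcript in vM21, and the deviations are from the mean of the 6 libraries on the log2 scale. The 9 channel genes under 48% GC had median deviations of -0.26, 0.04 and -0.05 in P213L replicates 1 to 3, against -0.12, 0.24 and 0.18 in WT replicates 1, 2 and 4. The 17 genes of 54% or more had 0.04, -0.04 and 0.09 in P213L, against 0.16, -0.10 and -0.08 in WT. P213L replicates 1 and 3 and WT replicate 1 thus leaned to GC-rich genes, and P213L replicate 2 and WT replicates 2 and 4 to GC-poor ones. Spearman's correlation with GC over the 36 genes was 0.691, -0.388 and 0.708 in P213L and 0.764, -0.765 and -0.698 in WT. Over 13705 tested rows with a GC value it was 0.6, -0.417 and 0.470 in P213L and 0.654, -0.662 and -0.532 in WT, so the channel genes shared a pattern of the libraries. The 6 deviations of a gene sum to 0, and the rows share the libraries.

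The fold changes followed the same axis. Over the 36 genes Spearman's correlation of the log2 fold change without WT replicate 3 with GC was 0.554, and over the 13705 rows 0.456. Of the GC-poor genes, Cacnb4 (40.5% GC) had a log2 fold change of -0.39 and Cacna2d1 (40.7%) -0.23. Of the GC-rich genes, Cacnb3 (61.3%) had 0.17, Cacna1h (60.0%) 0.25 and Hcn3 (58.0%) 0.29. These 5 were named after their values were seen, and other genes departed from them. Hcn2 (65.4%) and Cacng8 (65.1%), the richest in GC, had 0.06 and -0.02, and the GC-poor Scn9a (42.4%) had 0.03. Hcn4 (58.0%) and Cacna2d2 (55.8%), which were higher in P213L without overlap, had 0.28 and 0.21. Scn4b (54.5% GC) had deviations below 0 in all 3 P213L libraries and above 0 in WT replicates 1, 2 and 4. The same held for Cacng3 (54.6%), Scn8a (50.8%) and Cacng1 (55.9%), whose groups also did not overlap without WT replicate 3.

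With a smooth trend on GC content and length subtracted from each library and WT replicate 3 left out, an alternative chosen after seeing the data, 1 of the 36 genes passed, against 0.212% of the 13705 rows. That gene was Scn4b, with a log2 fold change of -0.71 ± 0.08 (SE; limma adjusted p = 0.0254). At an unadjusted p under 0.05, 12 genes were lower (33.3%, against 8.57% of rows) and 4 higher (11.1%, against 8.66%). The next smallest p-values were those of Cacng3 (-0.28 ± 0.06, adjusted p = 0.0756), Hcn4 (0.20 ± 0.05, adjusted p = 0.105) and Scn8a (-0.18 ± 0.04, adjusted p = 0.114; SE, limma). With the trend removed and all samples kept, 0 of 36 passed in limma and 2 were lower at an unadjusted p under 0.05.

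**Figure D5:**
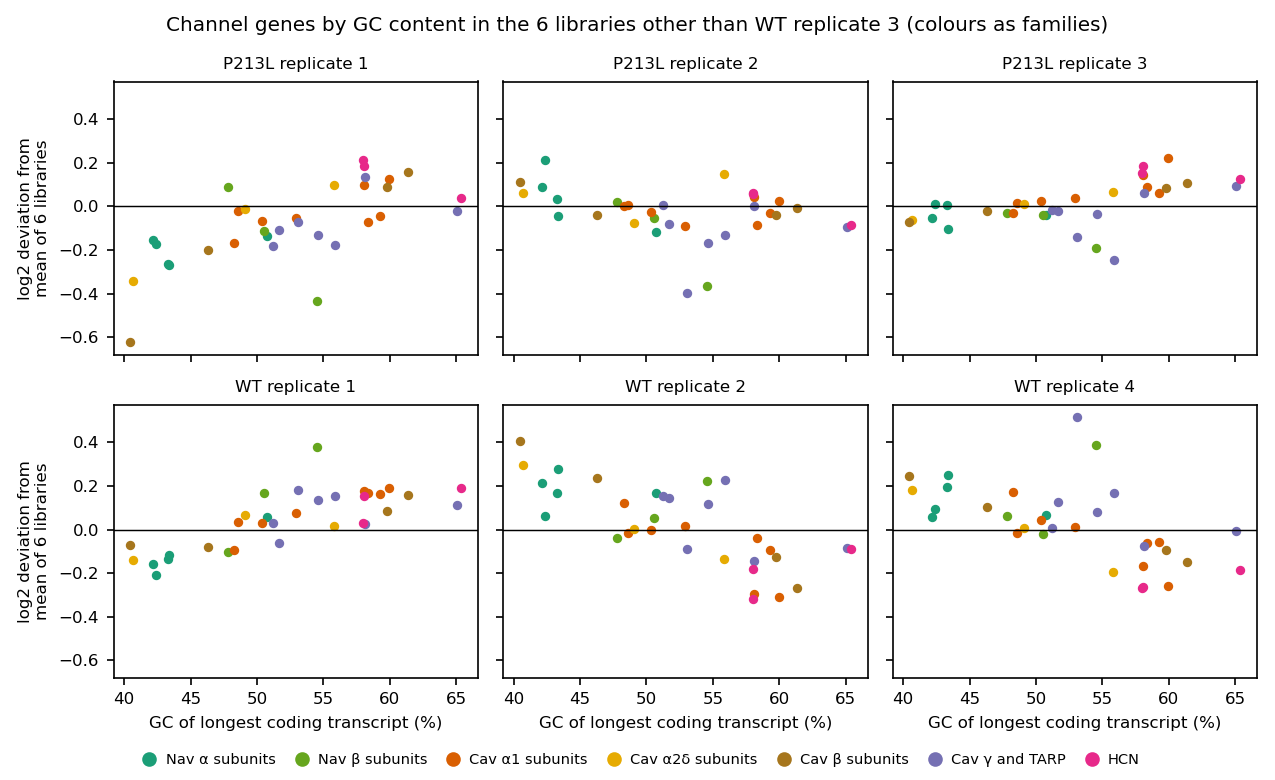
Log2 deviation of 33 of the tested channel genes, each from its mean over the 6 libraries other than WT replicate 3, against the GC content of its longest coding transcript, 1 panel per library, with P213L above and WT below. The slope is upward in P213L replicates 1 and 3 and WT replicate 1 and downward in P213L replicate 2 and WT replicates 2 and 4. Scn4b, the light green point at 54.5% GC, lies below 0 in each P213L panel and above 0 in each WT panel, as do Cacng3, Scn8a and Cacng1.

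Partners of these channels were taken from 7 lists with 68 genes in the table, of which 67 were tested. With all samples 0 of 67 passed in limma, 2 were higher at an unadjusted p under 0.05 (2.99%, against 2.36% of all rows) and 0 lower. Leaving out WT replicate 3, 0 passed, 3 were higher (4.48%, against 4.7%) and 8 lower (11.9%, against 3.99%). With all samples the groups did not overlap for 3 higher partners (4.48%, against 5.94% of all rows) and 2 lower ones (2.99%, against 2.75%). Without that library it was 3 higher (4.48%, against 7.33%) and 9 lower (13.4%, against 6.89%). Fgf11, one of the intracellular FGF homologous factors that bind the tail of sodium channels, had 56.9, 59.1 and 60.5 TPM in P213L, against 54.5, 42.3, 28.6 and 47.3 TPM in WT. The groups did not overlap. For Fgf11 the log2 fold change was 0.48 ± 0.21 with all samples and 0.30 ± 0.09 without WT replicate 3 (SE; limma adjusted p = 0.827 and 0.516). Stac, an adaptor that slows inactivation of L-type channels, had 14.7, 12.7 and 13.6 TPM in P213L, against 10.1, 11.9, 8.02 and 10.5 TPM in WT, also without overlap. For Stac the log2 fold change was 0.42 ± 0.15 with all samples and 0.32 ± 0.09 without WT replicate 3 (SE; limma adjusted p = 0.827 and 0.498).

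No gene of the other lists had an unadjusted p under 0.05 in both fits, and the gene named from each had its smallest p with all samples. Of 12 sodium channel and initial segment partners 9 had log2 fold changes above 0 with all samples and 3 without WT replicate 3, and of 16 calcium channel partners 10 and 7. Of 10 AMPA receptor genes outside the γ family 8 were above 0 with all samples and 3 without that library, among them Shisa7 (log2 fold change 0.49 and 0.07). Of 4 tested genes of the NALCN leak channel all were above 0 with all samples and 1 without that library, among them Unc79 (0.41 and 0.05). Of 6 intracellular calcium release channels 5 and 3 were above 0, among them Ryr1, the skeletal muscle ryanodine receptor (0.54 and 0.30). Of 13 regulators of channel transcripts 9 and 4 were above 0, among them the splicing factor Rbfox2 (0.33 and 0.10). Of 6 HCN partners 3 and 2 were above 0. Kcne2, an accessory subunit that is also abundant in choroid plexus, came to -1.01 and -1.29, and to -0.40 without WT replicate 2. It stood at 0.364 to 0.569 TPM in P213L and 0.587 to 6.47 TPM in WT, highest in that library, where the choroid plexus markers were high.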

How the data were processed

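Strand-specific poly(A) libraries were made from cortex RNA, per the labels' protocols. The submitters' processing notes name HISAT2, HTSeq and mm10. For the tool versions, the annotation, the gene lengths and the strand setting used in counting, nothing is given in the sources used here, so reads of overlapping genes may not be told apart. TPM values were computed by the authors, per the file headers, and are the unit deposited. Each library sums to 1000000 TPM, so abundant transcripts shift all other values. TPM keeps no read total, so the depth of each library is unknown and no count test was run. The 147 symbols on more than 1 row (297 rows) were kept as separate rows, none of them a channel gene.

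Samples were grouped by title. Values were tested as log2(TPM + 0.5) for rows with a mean of at least 1 TPM, with limma 3.58.1 in R 4.3.3 (two-sided, with a trend of variance on mean level, Benjamini-Hochberg adjusted over all rows tested at a threshold of 0.05). Fold changes are P213L over WT and understate the change of low genes. Single genes were also compared by exact permutation of the mean log2 values. The fit was tested on simulated data.

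The channel genes and the partner and marker lists were chosen with earlier results of these data known. Some of their genes are counted in sums and totals but not reported here by name, and 3 are not drawn. Values in every sample are given for the 2 most abundant genes of each family and for each gene at an unadjusted p under 0.05 in the fit with or without WT replicate 3, and Scn2b was added after its values were seen. Partner genes are named where both fits gave an unadjusted p under 0.05, or else by the smallest p of the list. Coordinates, lengths and GC content are from GENCODE vM21 (all 43 symbols matched), joined with pandas 2.3.3, and figures were drawn with matplotlib 3.10.9. Alternatives were other pseudocounts, filters, scalings and variance models, weights per sample, a block on the replicate number, and each sample left out. Removal of a trend on GC content and length, and the 3 alternatives that join another setting to leaving out WT replicate 3, were chosen after seeing the data.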

Additional observations from a re-analysis of the deposited data

Results flagged for a closer look

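WT libraries far from the other 3 were looked for in 28 measures, the TPM of 20 channel genes and 8 summed levels. Chance alone points to about 1 in 20 such groups where they are independent. These measures are not, since they share the libraries and the sums hold the same genes. Cacng3 was also among the 20 for its limma p without WT replicate 3, a choice that favours a gap there. The count is therefore not set against chance. Of the 28 measures 5 were flagged, all with WT replicate 3 lowest, and the gap to the next library as a share of the WT range is given for each. Cacna1b stood at 36.9 TPM there, against 102.9 to 107.5 TPM in the other WT libraries (gap 0.934). Cacng3 stood at 52.7 TPM, against 98.9 to 102.5 TPM (gap 0.926). Scn8a stood at 26.5 TPM, against 62.4 to 67.5 TPM (gap 0.876). Cacna2d3 stood at 33.0 TPM, against 45.1 to 47.3 TPM (gap 0.847). The sum of the 43 channel genes was 1544 TPM, against 2547 to 2737 TPM (gap 0.841).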

How the results depend on the processing

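Of 20 alternatives, 18 kept 0 channel genes past adjustment in limma. Sample weights gave 16 of 36, where 3981 of 17582 rows passed as well (22.6%). Those weights were 6.90 for P213L replicate 3 and 5.24 for WT replicate 4, against 0.0431 for WT replicate 3. Without WT replicate 3 and with the GC and length trend removed it was 1. The count of higher genes at an unadjusted p under 0.05 (0) was 9 with sample weights (25%, against 21.6% of rows). Without WT replicate 3 it was 2 with median-of-ratios scaling, 1 with the replicate block and 4 with the trend removed, and leaving out 1 library gave 0 to 2. The count of lower genes (2) was 1 with no filter, with a filter at 5 TPM or with the replicate block, and 11 with sample weights (30.6%, against 18.1% of rows). Without WT replicate 3 it was 5, 9 and 12 under the same 3 settings as above, and leaving out 1 library gave 1 to 5. The count of genes without overlap (4) was 8 (22.2%, against 14% of rows), 8 (22.2%, against 14.2%) and 17 (47.2%, against 22.8%) there. With 1 library left out it ran from 4 to 12, the highest without WT replicate 1 (33.3%, against 25% of rows). The median fold change ran from -0.09 to 0.28, and was -0.05 without WT replicate 3. The SD between samples of the genes' median deviation was 0.34 with that library and 0.035 without it.

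Of 296 values of 15 named genes under alternatives, 21 changed sign, all of them of Scn2a, Scn8a or Cacng3. Another 9 kept their sign and passed adjustment, 8 of them with sample weights and that of Scn4b with WT replicate 3 left out and the trend removed. Scn2a came to -9.11e-04 under quantile normalization, -0.036 after scaling by median of ratios and -0.33 under sample weights (limma adjusted p = 0.0178), the only one of the 21 past adjustment. Scn8a came to -0.14 with sample weights and -0.054 with the trend removed. Cacng3 came to -0.038, -0.074 and -0.15 under the settings named for Scn2a. With 1 library left out it ran from -0.22 to 0.095, at -0.028 without P213L replicate 3. Without WT replicate 3, Scn2a came to -0.27, and to -0.28 with median-of-ratios scaling, -0.24 with the replicate block and -0.19 with the trend removed. Scn8a came to -0.20, -0.20, -0.24 and -0.18 there, and Cacng3 to -0.22, -0.22, -0.27 and -0.28. With 1 library left out Scn2a ran from -0.27 to 0.20 and Scn8a from -0.20 to 0.25. The cause was not tested, except that each value without WT replicate 3 lacks the library that was lowest for all 3 genes. The replicate block changed no call past adjustment. Same-numbered P213L and WT samples deviated from their group means with r = 0.128, 0.170 and -0.101. Without WT replicate 3 it was 0.201 for replicate 1 and 0.266 for replicate 2. What the numbers mark is not in the sources used here, and they were not taken to pair the samples in the main fit. Whether same-numbered samples share a batch cannot be told from these values. The median of all rows was -0.0073 under quantile normalization and -0.0045 under scaling by ratios, against 0.07. The number of reads behind genes near 1 TPM, such as Cacng1, is unknown.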
